A study of Mus musculus with 12 samples.

Results

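Uhrf1 and 8 other genes of DNA methylation reading, copying and removal were followed across 12 Illumina mouse bead arrays of left-ventricular cardiomyocytes. The genes were Uhrf1, Uhrf2, Dnmt1, Mbd1, Mbd2, Mbd3, Usp7, Tet2 and Tet3, and every probe whose symbol in the platform annotation equalled one of these names was taken. This gave 23 of the 45281 probes, for 8 of the 9 genes. No probe carried the symbol Tet2, so Tet2 is not analysed here. Of the 23 probes, 12 probes of 6 genes had a detection p under 0.01 on 3 or more of the 12 arrays and entered the tests.

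Uhrf1 binds hemimethylated DNA behind the replication fork and brings Dnmt1, the maintenance DNA methyltransferase, to the newly made strand. Uhrf2 is its paralogue, and Usp7 is a deubiquitinase that forms complexes with Uhrf1 and Dnmt1. Mbd1 and Mbd2 bind methylated CpG through a methyl-CpG binding domain, Mbd3 carries a related domain in the nucleosome remodelling and deacetylase (NuRD) complex, and the Tet enzymes oxidise 5-methylcytosine. In many cell types Uhrf1 and Dnmt1 mRNA is high in cells that replicate DNA, and adult cardiomyocytes seldom divide.

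All mice were C57Bl6/J males with a labelled age of 8 weeks. Every mouse, controls included, had received adeno-associated virus of serotype 9 (AAV9) as a pup of 10 days, and surgery followed after 2 months. The virus carried a scrambled shRNA (shControl) or a hairpin named sh-Uhrf1 #1 (shUhrf1), so that the knockdown rests on 1 hairpin. The 4 groups of 3 arrays were sham shControl, TAC shControl, sham shUhrf1 and TAC shUhrf1, all labelled as 1 week, where TAC is transverse aortic constriction, a pressure overload of the left ventricle. The labels do not give the promoter of the hairpin, the purity of the cells or whether the triplicates are separate mice. The p-values therefore describe the spread among these arrays alone, and that spread may be technical. All values are bulk levels, in which fewer cells of a type and less RNA per cell cannot be told apart.

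Between 12309 and 14908 probes were detected per array. All 9 measured cardiomyocyte markers were detected on all 12 arrays. In limma 0 of the 9 passed for TAC in shControl, TAC in shUhrf1, shUhrf1 in sham or shUhrf1 after TAC. The shares of all genes that passed were 18.9%, 5.55%, 0.0457% and 2.89% in this order. At an unadjusted p under 0.05 stood 0, 3, 2 and 2 of the 9, against 33.8%, 22.5%, 13.2% and 19.3% of all genes. The preparations also held RNA of other cells, since 9 of 12 endothelial markers were detected on every array. Kdr was detected on 0 sham arrays and Fabp4 on no array, and 6 of 6 measured lymphocyte markers were undetected throughout. Sham shUhrf1 array 2 stood apart, with the lowest endothelial, fibroblast and macrophage marker levels of all arrays. Without that array Uhrf1 gave an adjusted p of 0.00177 for TAC in shControl and 0.0313 for shUhrf1 after TAC.

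Sequence before annotated start sites is shown for Uhrf1 and for Mcm5 and Cdk1, 2 of the 8 genes whose pattern over the arrays was most like that of Uhrf1, because all 3 hold the same letters there. E2F factors are transcription factors that drive genes of DNA replication. Capitals mark matches to 4 E2F-type words, TTTCCCGC, TTTCGCGC, TTTGCCGC and TTTGGCGC, searched on both strands. Each sequence is 250 bases from RefSeq in the GRCm38.p6 build, written 5′ to 3′ on the gene's own strand.
Uhrf1, chr17:56304063-56304312, plus strand: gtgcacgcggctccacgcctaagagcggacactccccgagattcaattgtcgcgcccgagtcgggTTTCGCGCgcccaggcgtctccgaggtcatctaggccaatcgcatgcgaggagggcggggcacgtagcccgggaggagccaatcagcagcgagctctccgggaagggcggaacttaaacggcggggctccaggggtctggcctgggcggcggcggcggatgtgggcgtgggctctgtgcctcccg
Mcm5, chr8:75109259-75109508, plus strand: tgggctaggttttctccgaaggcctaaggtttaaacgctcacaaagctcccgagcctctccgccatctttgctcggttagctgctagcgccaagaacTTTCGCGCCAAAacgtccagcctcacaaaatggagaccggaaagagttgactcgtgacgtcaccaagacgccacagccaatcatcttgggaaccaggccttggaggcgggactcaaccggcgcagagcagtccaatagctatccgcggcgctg
Cdk1, chr10:69352913-69353162, minus strand: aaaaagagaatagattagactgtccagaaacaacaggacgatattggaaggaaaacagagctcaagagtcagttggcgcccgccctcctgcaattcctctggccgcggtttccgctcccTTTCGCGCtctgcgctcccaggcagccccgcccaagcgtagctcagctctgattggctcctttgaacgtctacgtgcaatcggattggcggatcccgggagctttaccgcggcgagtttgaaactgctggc

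The Uhrf1 window above belongs to the second of its 2 annotated starts, and its match lies 185 bases before that start. In the Mcm5 window 2 matches on opposite strands overlap, at 153 and 149 bases before the start, and the Cdk1 match lies 131 bases before it. In windows of 300 bases around annotated starts, such a word stood in 2.26% of 32851 windows and in at least 1 window of 2.60% of 27025 genes. Of the 7 listed genes with a window, 2 held one, Uhrf1 and Dnmt1, and the Dnmt1 window with 2 matches is the most downstream of its 3. The first Uhrf1 window held none. The second Uhrf1 window also held 2 CCAAT letters, a word found in 37.4% of all windows, and 33 CpG against a median of 7 over all windows. The windows of Usp7 and Tet2 were the richest in CpG among the listed genes, with 63 and 57. These matches are descriptions of letters and were not tested as binding sites.

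Uhrf1 was the gene the hairpin targets and was measured first. It was low in sham cells, rose with TAC in control cells, and was lower after TAC in cells with the hairpin. Its brighter probe read 4.98, 4.89 and 4.76 on the sham shControl arrays (normalized log2 intensity), 6.14, 7.11 and 6.89 after TAC, 4.74, 4.41 and 4.46 in sham shUhrf1, and 4.68, 5.34 and 6.06 in TAC shUhrf1. The probe was above background on all 3 TAC shControl arrays and on TAC shUhrf1 arrays 2 and 3, and not well above background on any of the 6 sham arrays. The 3 TAC shControl arrays all lay above the other 9 arrays, while TAC shUhrf1 array 1 lay among the sham arrays.

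The group means fell in the order TAC shControl (6.71 ± 0.51), TAC shUhrf1 (5.36 ± 0.69), sham shControl (4.88 ± 0.11) and sham shUhrf1 (4.54 ± 0.18; SD, n = 3, log2 intensity). The TAC rise in shControl cells was at least 2.56-fold (limma adjusted p = 0.00205 over 15118 probes). The probe entered the tests through TAC arrays alone, so the filter favoured this difference. Without the filter on dim probes the limma adjusted p was 0.0138 for this comparison and 0.112 for shUhrf1 after TAC. In shUhrf1 cells the TAC difference did not pass (limma adjusted p = 0.136). It gives no bound on the fold, because the probe was undetected on TAC shUhrf1 array 1 too. After TAC, shUhrf1 cells were lower by a log2 difference of -1.35 ± 0.30 (SE; 95% interval -2.01 to -0.70; limma adjusted p = 0.0355). The sham groups give no fold, because the probe was detected on no array of either. The values of TAC shUhrf1 and sham shControl overlapped, so these neighbours in the order did not separate. The interaction, the test of whether the TAC responses differed, did not pass (limma adjusted p = 0.475), and it rests on undetected sham values.

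The difference after TAC is close to the threshold. Its adjusted p was 0.138 without TAC shControl replicate 2 and 0.118 without replicate 3, 0.0979 and 0.0725 when TAC shUhrf1 replicate 2 or 1 was removed, and 0.0514 when sham shControl replicate 3 was. All 12 of these values stayed between -1.71 and -1.01. In the plot of this difference under each setting the direction is negative throughout, and the size falls in the authors' value table. An exact two-sided permutation test over these 6 arrays returned p = 0.1, its smallest possible value. A second Uhrf1 probe was detected on no array and gives no value.

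**Figure D1:**
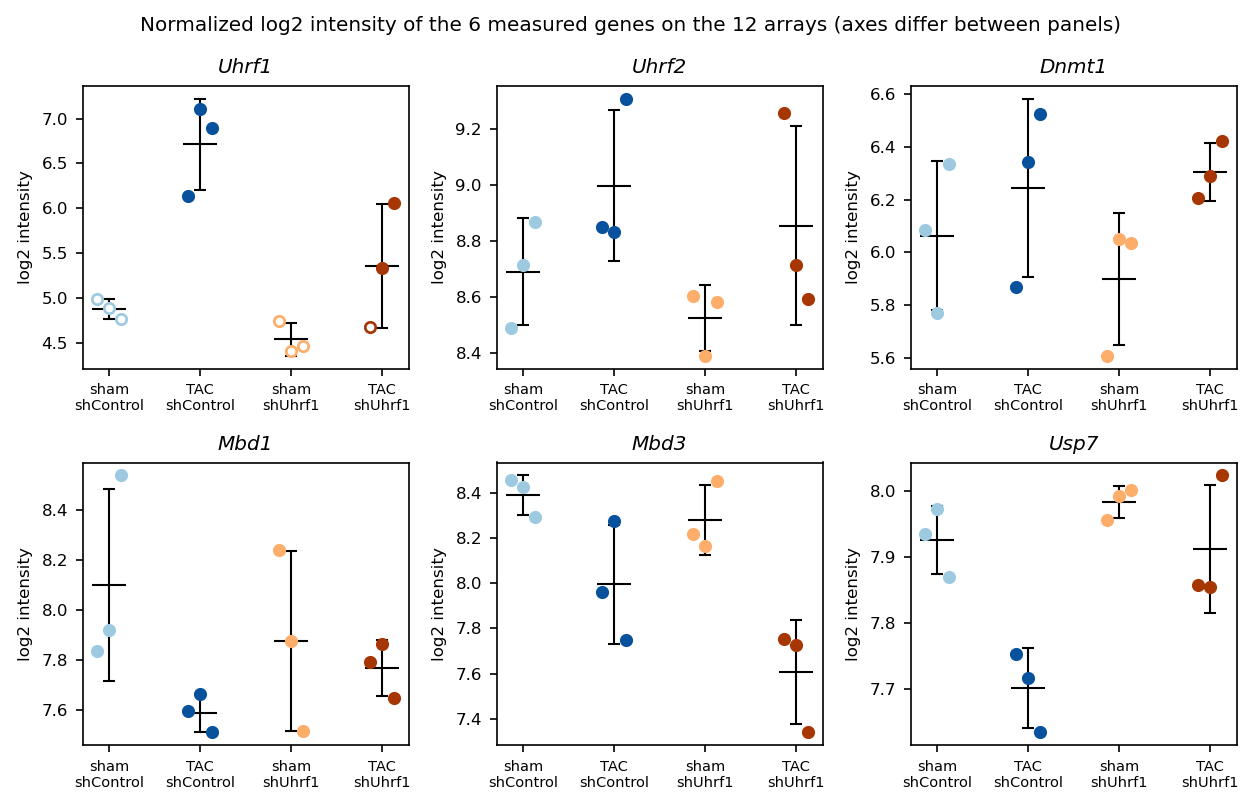
Normalized log2 intensity (vertical axis) of the brightest tested probe of each of the 6 measured genes in the 4 groups (horizontal axis), with a point per array, open where the probe was not detected, and bars for the mean ± SD of 3 arrays. The 3 TAC shControl points of Uhrf1 lie between 6.14 and 7.11, above all other arrays, and vertical axes differ between panels.

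**Figure D2:**
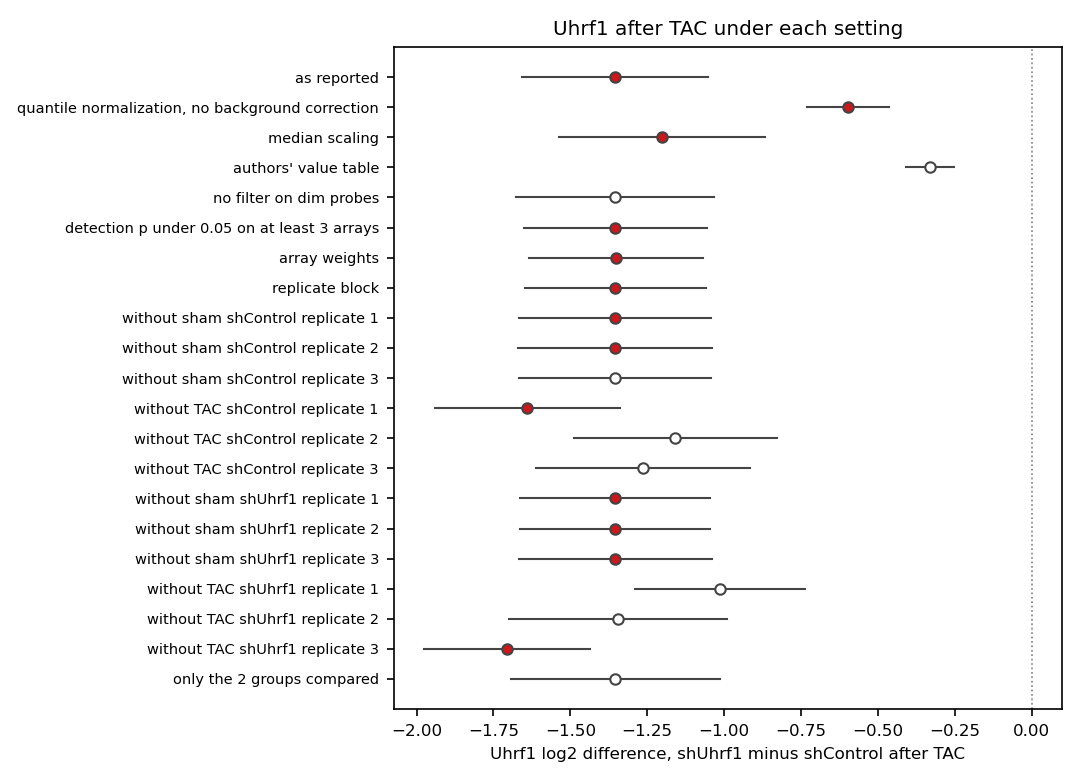
Log2 difference of Uhrf1, shUhrf1 minus shControl after TAC (horizontal axis), under each processing setting (vertical axis), with bars for 1 SE and filled points where the adjusted p was under 0.05. All values are negative, from -1.71 to -0.33.

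Uhrf2, the paralogue, did not pass in any of the 5 comparisons, and with median scaling it passed for TAC in shUhrf1 cells (0.85, adjusted p = 0.0278), where the median of all genes moved by 0.45. Its brightest probe read 8.49, 8.71 and 8.87 in sham shControl, 8.85, 8.83 and 9.31 in TAC shControl, 8.60, 8.39 and 8.58 in sham shUhrf1, and 9.26, 8.71 and 8.59 in TAC shUhrf1 (log2 intensity). The groups overlapped in each of the 4 comparisons. After TAC the hairpin and control cells differed by -0.14 ± 0.19 (SE; 95% interval -0.56 to 0.28; adjusted p = 0.742). The interval for Uhrf2 does not reach the value of Uhrf1 in the same arrays. The 4 tested Uhrf2 probes moved poorly together over the 12 arrays, with Pearson r of -0.24 to 0.39, a description over arrays that share group and labelling. With TAC in shUhrf1 cells the third probe differed by 0.70 ± 0.24 (adjusted p = 0.111) and the fourth by -0.51 ± 0.22 (adjusted p = 0.200), so the probes disagreed in sign and neither passed. The fifth Uhrf2 probe was detected on no array.

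Dnmt1, the partner of Uhrf1 in copying methylation, had 1 probe, detected on all arrays. It read 6.09, 5.77 and 6.33 in sham shControl, 5.87, 6.34 and 6.52 in TAC shControl, 5.61, 6.05 and 6.03 in sham shUhrf1, and 6.20, 6.29 and 6.42 in TAC shUhrf1 (log2 intensity). The groups overlapped in every comparison but TAC in shUhrf1 cells, where the 3 TAC arrays lay above the 3 sham arrays by 0.41 ± 0.20 (adjusted p = 0.253). With TAC in shControl cells Dnmt1 differed by 0.18 ± 0.20 (95% interval -0.25 to 0.61; adjusted p = 0.569). After TAC it differed between shUhrf1 and shControl by 0.06 ± 0.20 (95% interval -0.37 to 0.49; adjusted p = 0.911). Dnmt1 had no called change in any of the 5 comparisons, and with median scaling it passed for TAC in shUhrf1 cells (0.83, adjusted p = 0.0346; 0.37 relative to the median of all genes).

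Usp7, the deubiquitinase, had 3 tested probes and no called difference. Its brightest probe read 7.94, 7.97 and 7.87 in sham shControl, 7.75, 7.72 and 7.63 in TAC shControl, 7.96, 7.99 and 8.00 in sham shUhrf1, and 7.86, 7.86 and 8.02 in TAC shUhrf1 (log2 intensity). The 3 TAC shControl arrays were the lowest of the 12. Their differences were -0.22 ± 0.12 from sham shControl (adjusted p = 0.206), and TAC shUhrf1 stood 0.21 ± 0.12 above them (adjusted p = 0.348). With median scaling the first of these turned to 0.08. The dimmest probe was detected on all 6 shUhrf1 arrays and on no shControl array, at 5.33 to 5.68 against 5.01 to 5.41. On the shControl arrays its detection p was 0.0107 to 0.0171, just over the cut-off of 0.01, so the contrast in detection rests on that cut-off. After TAC the probe was at least 1.28-fold higher in shUhrf1 arrays, which missed the threshold (adjusted p = 0.101). It entered the tests through shUhrf1 arrays alone, so this difference is a description.

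Among the methyl-CpG binding family Mbd3 was the gene whose brightest probe had a called change, and Mbd2 was not measured. A dim Mbd1 probe was also called, as given below. Mbd3 read 8.46, 8.43 and 8.29 in sham shControl, 7.96, 8.27 and 7.75 in TAC shControl, 8.22, 8.17 and 8.45 in sham shUhrf1, and 7.75, 7.73 and 7.34 in TAC shUhrf1 (log2 intensity). TAC arrays lay below sham arrays with either virus, without overlap. The TAC difference passed in shUhrf1 cells, at -0.67 ± 0.17 (adjusted p = 0.0370), and not in shControl cells, at -0.40 ± 0.17 (adjusted p = 0.118). The interaction for Mbd3 was -0.28 ± 0.24 (adjusted p = 0.755), so the responses were not shown to differ.

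The fall of Mbd3 is relative to the other probes of an array. Before normalization its mean intensity in shUhrf1 cells was 332.9 in sham and 332.7 after TAC, while the median intensity of all probes was 94.1 to 96.4 on the sham and 99.5 to 112.2 on the TAC arrays of these cells. With median scaling in place of quantile normalization, the Mbd3 difference was -0.16 (adjusted p = 0.540), where the median of all genes moved by 0.45, which leaves -0.61 relative to it. The call was also lost without sham shUhrf1 replicate 1 (0.0717), 2 (0.0853) or 3 (0.113), and without TAC shUhrf1 replicate 1 (0.0638) or 3 (0.154).

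Mbd1 was represented by 6 probes, of which 2 were tested. The brighter read 7.83, 7.92 and 8.54 in sham shControl, 7.59, 7.66 and 7.51 in TAC shControl, 8.24, 7.87 and 7.52 in sham shUhrf1, and 7.79, 7.86 and 7.65 in TAC shUhrf1 (log2 intensity). TAC shControl arrays lay below sham shControl arrays, at -0.51 ± 0.21, which did not pass (adjusted p = 0.105). The dimmer probe passed for the same comparison, lower after TAC (adjusted p = 0.0464). It gives no bound on the fold, because it was undetected on most of these sham arrays too. In that comparison 17.5% of all probes passed. The dimmer probe was detected on 1 of 3 sham and 0 of 3 TAC shControl arrays, and it passed in 6 of 20 alternative settings. Leaving out any array of these 2 groups ended that call. The other 4 Mbd1 probes were detected on at most 1 array.

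Mbd2 and Tet3 were not well above background on any array, with 2 and 3 probes at intensities of 82.4 to 103.9 and 84.2 to 109.5. No difference is given for either gene.

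The 6 measured genes gave 1 called gene for TAC in shControl cells (Uhrf1, higher), against 18.9% of all 8746 genes called in that comparison and 11.4% called higher. For TAC in shUhrf1 cells 1 of 6 was called (Mbd3, lower), against 5.55% of all genes and 1.59% called lower. For shUhrf1 after TAC 1 of 6 was called (Uhrf1, lower), against 2.89% and 1.36% called lower. In sham cells 0 of 6 were called by limma, against 0.0457% of all genes, and 0 had an unadjusted p under 0.05. For the interaction 0 of 6 were called, against 0% of all genes, and 1 of the 6, Uhrf1, had an unadjusted p under 0.05. The median differences of the 6 genes were -0.02, 0.13, -0.04, -0.16 and 0.09 in this order, beside -0.04, 0.01, 0.01, -0.00 and 0.03 over all genes (log2). Uhrf1 itself entered the tests through TAC arrays alone. A share of 1 in 6 is near the background for TAC in shControl cells.

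**Figure D3:**
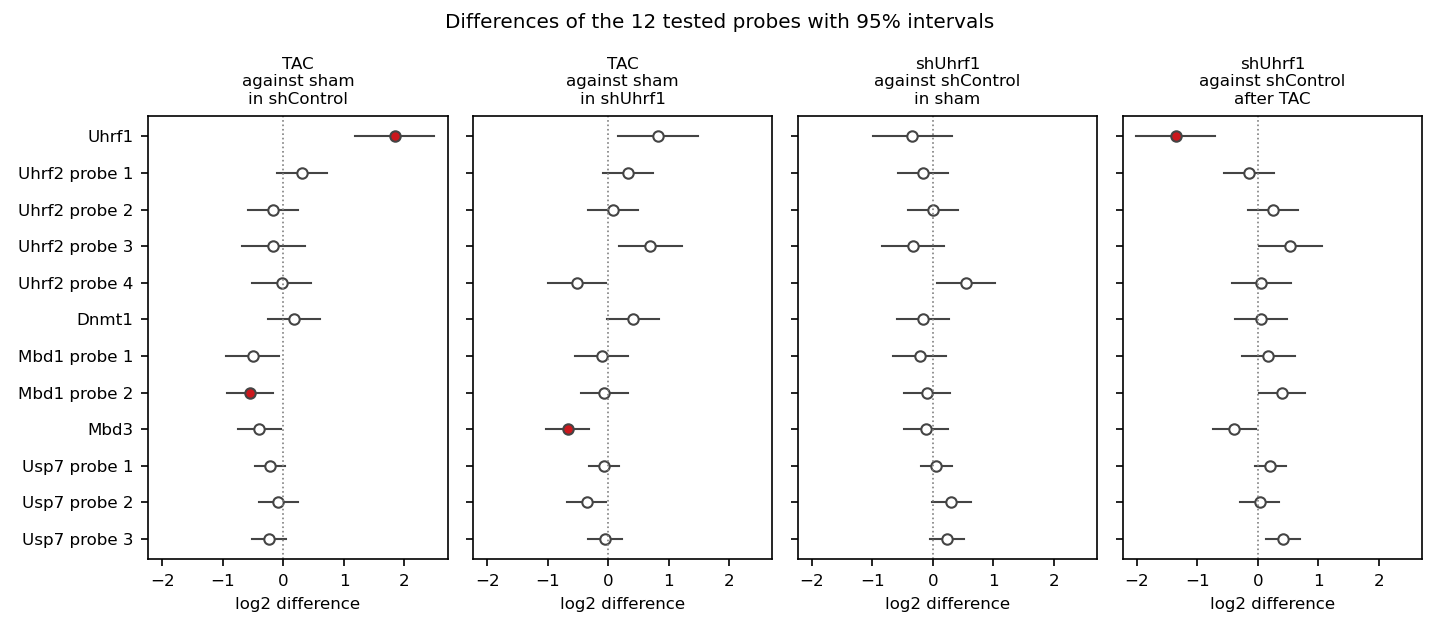
Log2 difference (horizontal axis) of each of the 12 tested probes (vertical axis) in 4 comparisons, with 95% intervals and filled points where the adjusted p was under 0.05. Apart from Uhrf1, the filled points are the second Mbd1 probe for TAC in shControl and Mbd3 for TAC in shUhrf1, and most intervals cross 0.

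Of 45 listed genes of the wider DNA methylation machinery, grouped as methyltransferases and cofactors, other methyl-CpG readers, demethylation genes, NuRD subunits, H3K9 methylation genes and Usp7 partners, 27 were measured. With TAC in shControl cells 1 was higher and 2 were lower, or 11.1% of the 27, against 18.9% of all genes, of which 11.4% were higher and 7.47% lower. Cdca7, a cofactor of the chromatin remodeller Hells, rose at least 1.23-fold (adjusted p = 0.000937). It was detected on no sham array and entered the tests through TAC arrays, so this rise is a description. Gadd45b, a stress-induced gene linked to active demethylation, fell by 0.90 ± 0.23 on the log2 scale (adjusted p = 0.0183), and Mta1, a NuRD subunit, fell by 0.70 ± 0.20 (adjusted p = 0.0281). The Gadd45b call was lost without sham shControl replicate 3 (0.0763) or TAC shControl replicate 2 (0.0688) and with median scaling (0.241), and the Mta1 call without sham shControl replicate 3 (0.108) or TAC shControl replicate 1 (0.0708) or 3 (0.117) and with median scaling (0.311). In the other comparisons 0 of 27 passed in limma, with 5 at an unadjusted p under 0.05 for TAC in shUhrf1 cells (22.5% of all genes), 4 for the hairpin in sham cells (13.2%), 3 for the hairpin after TAC (19.3%) and 5 for the interaction (9.9%).

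Several genes of DNA replication (S phase) rose with TAC in shControl cells, and others did not pass. Of 18 listed, 11 were tested and 7 of these were higher, against 11.4% of all genes. Like Uhrf1, 6 of the 7 were detected on no sham array and entered the tests through TAC arrays, so they had to differ and the count is a description. Of the 5 tested genes that were detected on a sham array, 1, Mcm4, was higher, while Mcm2 differed by 0.11 (adjusted p = 0.753), Rrm1 by -0.019 (0.967), Mcm7 by 0.31 (0.326) and Gins1 by -0.47 (0.179). The 7 were Mcm4, Mcm5 and Mcm6, subunits of the replicative helicase, Cdt1, a licensing factor, Tyms, the thymidylate synthase, Lig1, the DNA ligase of lagging strands, and Top2a, a topoisomerase. Mcm5 rose at least 3.09-fold (adjusted p = 0.000153), and the Mcm4 call (0.71 ± 0.20, adjusted p = 0.0261) was lost without replicate 2 or 3 of sham shControl or of TAC shControl (0.0757 to 0.0902). In shUhrf1 cells 1 of 11, Mcm6, rose with TAC, at least 1.79-fold (adjusted p = 0.0207), where 3.96% of all genes were called higher. Mcm6 was detected on no sham array and entered the tests through TAC arrays, so this rise is a description. After TAC 2 of 11 were lower in shUhrf1 than in shControl cells, against 1.36% of all genes. These were Mcm5 by -1.44 ± 0.20 and Top2a at least 2.07-fold (adjusted p = 0.00966 for both). Top2a was detected on the 3 TAC shControl arrays alone and entered the tests through them, so its fall is a description. Without TAC shControl replicate 2 Mcm5 and Top2a both gave an adjusted p of 0.0534. The Mcm6 call ended without sham shUhrf1 replicate 2 (0.0658) or 3 (0.0663), or TAC shUhrf1 replicate 1 (0.0520) or 3 (0.0968).

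The 11 tested S-phase genes, 6 of them let in by TAC arrays, had a mean deviation of 0.37, 0.62 and 0.65 on the TAC shControl arrays and -0.06, -0.04 and 0.16 on the TAC shUhrf1 arrays, with -0.36 to -0.12 in sham shControl and -0.40 to -0.17 in sham shUhrf1 (log2, relative to each gene's mean over the 12 arrays). TAC shControl array 1, the lowest of its group for Uhrf1, was also the lowest for the S-phase genes, and TAC shUhrf1 array 3 was the highest of its group for both. Endothelial and fibroblast markers placed these 2 arrays in the same way, so the match is not particular to S phase. Within TAC shControl, Uhrf1 was highest on array 2 and the S-phase genes on array 3.

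Markers of other cells differed between the same groups. Of 12 endothelial markers listed, 10 were tested, and 8 of the 10 were higher with TAC in shControl cells (11.4% of all genes), 1 of 10 was higher with TAC in shUhrf1 cells (3.96%), and 3 of 10 were lower in shUhrf1 after TAC (1.36%). Their mean deviation was 0.49 to 1.40 in TAC shControl, -0.41 to -0.09 in TAC shUhrf1, -0.60 to -0.32 in sham shControl and -1.15 to 0.19 in sham shUhrf1 (log2), with r = 0.83 to Uhrf1 over the 12 arrays, a description over arrays that fall into the study's groups. Fibroblast markers were higher with TAC for 10 of 11 tested in shControl cells (11.4% of all genes) and for 6 of 11 in shUhrf1 cells (3.96%). For shUhrf1 after TAC 0 of 11 passed in limma (2.89%), with 3 at an unadjusted p under 0.05 (19.3%). Col1a1, Col1a2, Col3a1 and Tcf21 were detected on no sham shControl array and entered the tests through TAC arrays. The TAC counts are therefore in part a description. The mean deviation of the fibroblast markers was -1.39 to -0.83 in sham shControl, 0.92 to 1.35 in TAC shControl, -1.58 to -0.38 in sham shUhrf1 and 0.36 to 1.04 in TAC shUhrf1 (r = 0.77 to Uhrf1). Macrophage markers were higher with TAC for 3 of 10 tested with either virus (11.4% of all genes in shControl, 3.96% in shUhrf1 cells). Mean deviations of these markers were -0.59 to -0.23, 0.39 to 0.75, -1.56 to -0.24 and 0.094 to 0.91 in the same order of groups (r = 0.65). Of 6 tested smooth muscle and pericyte markers, 2 were higher with TAC in shControl cells (11.4% of all genes). In shUhrf1 cells 0 of the 6 passed in limma (5.55%), and 0 had an unadjusted p under 0.05 (22.5%). Mean deviations of the 6 were -0.32 to -0.15, 0.11 to 0.73, -0.47 to 0.29 and -0.24 to -0.079 (r = 0.77). The part of these cells in the Uhrf1 result was not tested. The mean of the cardiomyocyte markers moved little over the same arrays, with mean deviations of -0.09 to 0.13 (r = -0.51 to Uhrf1). These markers are very bright, with mean log2 intensities of 12.1 to 14.8. Quantile normalization gives the brightest probes of each array alike values, which limits how far this mean could move. Before normalization their summed intensity ran from 124854 on TAC shControl array 2 to 192495 on TAC shUhrf1 array 3. Single markers moved more and in both directions. Their log2 differences ran from -0.17 to 0.12 for TAC in shControl and from -0.55 to 0.26 for TAC in shUhrf1. For shUhrf1 they ran from -0.17 to 0.75 in sham and from -0.34 to 0.53 after TAC.

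**Figure D4:**
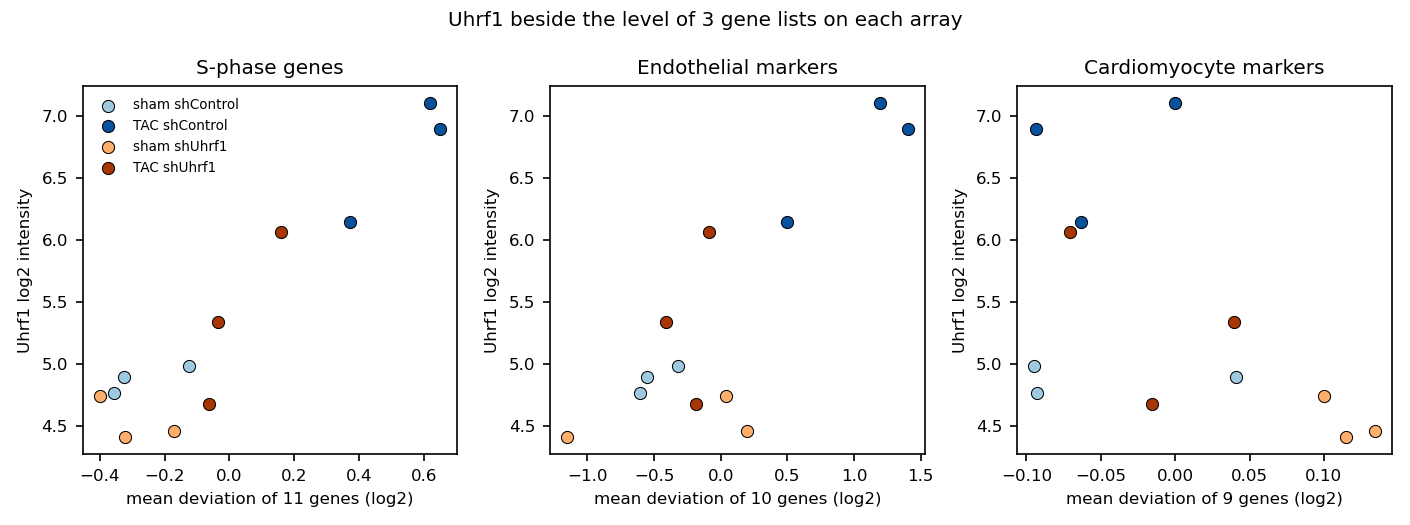
Normalized log2 intensity of Uhrf1 (vertical axis) against the mean deviation of 11 S-phase genes, 10 endothelial markers and 9 cardiomyocyte markers on each of the 12 arrays (horizontal axes, log2), coloured by group. The TAC shControl arrays stand at the upper right for S-phase and endothelial genes, and the cardiomyocyte axis spans -0.09 to 0.13.

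The 8 genes whose pattern over the 12 arrays was most like that of Uhrf1 were Mcm5 (r = 0.970), Efnb1 (0.953), Tmem255b (0.951), Cdk1 (0.950), Lig1 (0.948), Tubb5 (0.945), Prc1 (0.944) and Lrrc8c (0.939). With group means removed the r of these genes was 0.656 to 0.866. They were picked for their r over the same arrays, which favours a high r here too, so this range is a description. Cdk1 is the mitotic cyclin-dependent kinase, Prc1 organises the spindle midzone, Tubb5 is a tubulin, Efnb1 an ephrin ligand and Lrrc8c a subunit of a volume-regulated anion channel. All 8 passed for TAC in shControl cells, of which Lrrc8c passed in 11 of 20 alternative settings. They were chosen for resembling Uhrf1 and 6 of them were detected on no sham array, so this count is a description.

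Mcm5 read 5.21, 4.99 and 4.97 in sham shControl, 6.51, 7.24 and 7.21 in TAC shControl, 4.82, 4.86 and 5.05 in sham shUhrf1, and 5.26, 5.55 and 5.84 in TAC shUhrf1 (log2 intensity). The TAC shUhrf1 arrays lay above all sham arrays and below all TAC shControl arrays. Prc1 read 4.66, 4.79 and 5.01 in sham shControl, 7.30, 8.34 and 9.01 in TAC shControl, 4.94, 4.45 and 4.60 in sham shUhrf1, and 5.98, 6.32 and 6.51 in TAC shUhrf1. It was the only one of the 8 to pass for TAC in shUhrf1 cells, at least 2.06-fold (adjusted p = 0.0172), a call lost without sham shUhrf1 replicate 2 (0.0676) or TAC shUhrf1 replicate 3 (0.0817). Prc1 was detected on no sham array and entered the tests through TAC arrays, so this rise is a description. Cdk1 read 5.28, 6.09 and 6.69 in TAC shControl and 4.31, 4.72 and 5.16 in TAC shUhrf1, where it was detected on 1 of 3 arrays, and it was not detected on any sham array. After TAC 6 of the 8 were lower in shUhrf1 cells, from -1.95 ± 0.32 for Prc1 to -0.66 ± 0.16 for Tubb5, against 1.36% of all genes. Lig1 and Lrrc8c did not pass (adjusted p = 0.0697 and 0.190). The 8 were chosen for resembling Uhrf1, itself lower in these cells, so this count too is a description. Without TAC shControl replicate 2 none of the 6 lower genes passed, with adjusted p from 0.0534 for Mcm5 to 0.153 for Tubb5. Efnb1 passed in 9 of 21 alternative settings, Tmem255b and Cdk1 in 10 of 20 each and Tubb5 in 6 of 21. The E2F-type words stood in windows of 3 of the 8, Mcm5, Cdk1 and Lig1.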

How the data were processed

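Per the labels' protocols, biotin-labelled cRNA from 12 cardiomyocyte samples, grouped by their titles, was run on Illumina arrays. The deposited non-normalized table pairs each linear intensity with a detection p-value, per the file headers. The authors' value table holds normalized log2 values and served as an alternative. The submitters' processing notes name lumi, without version or settings.

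Probes were named through the platform annotation, of which 34885 of 45281 had 1 symbol, 18 several and 10378 none. Intensities were corrected and quantile-normalized with neqc of limma 3.58.1 (R 4.3.3; background from the detection p-values, offset 16). A probe was tested where its detection p was under 0.01 on 3 or more of 12 arrays (15118 probes, 8746 genes), and a gene stands for its kept probe with the highest mean. One model with a mean per group gave 5 comparisons, moderated with eBayes, with Benjamini-Hochberg adjustment over all probes and a threshold of 0.05. Differences are log2 ± SE. "At least" folds are given where a group was undetected throughout and the other was detected on all its arrays. They divide the brighter group's mean by that of the dim group. Each dim array was raised to its lowest detected signal where the probe lay below it. The number of arrays limits the precision. The fit was tested on simulated data.

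The genes and lists were chosen with earlier results of these data known. Named were all probes of the members, up to 4 passing genes of the smallest p per pathway list, and the 8 genes with the highest Pearson r to the brightest Uhrf1 probe. Promoter windows span 250 bases before to 50 after RefSeq starts.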

Additional observations from a re-analysis of the deposited data

How the results depend on the processing

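Uhrf1 for TAC in shControl passed in 20 of 20 alternatives (adjusted p 0.000481 to 0.0138). Its fitted sizes against undetected sham arrays are no bounds and are not given. Uhrf1 after TAC passed in 12 of 20. It was -0.33 in the authors' value table (adjusted p = 0.0509), and -1.35 both without the filter on dim probes (0.112) and in a fit of the 2 groups alone (0.0676). Leaving out 1 array gave -1.71 to -1.01, of which 7 of 12 passed. Uhrf1 for TAC in shUhrf1 passed with median scaling (0.0401), at a fitted 1.02 against undetected sham arrays, which is no bound. Probes detected on all 12 arrays do not include Uhrf1.

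Called members for TAC in shControl numbered 0 with probes detected on all 12 arrays. For TAC in shUhrf1 they numbered 3 with median scaling (Uhrf1, Uhrf2 and Dnmt1 higher), 0 with no filter, 0 with only the 2 groups and 0 to 1 without 1 array. After TAC they numbered 0 in the authors' table, 0 with no filter, 0 with probes detected on all 12 arrays, 0 with only the 2 groups and 0 to 1 without 1 array. Pathway genes for TAC in shControl numbered 1 with no filter and 1 to 4 without 1 array, and 4 with median scaling for TAC in shUhrf1.

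Median scaling moved the median of all genes by 0.19, 0.45, 0.04, 0.28 and 0.26 in the 5 comparisons, and called 2002 genes higher and 13 lower for TAC in shUhrf1, against 346 and 139. It turned Usp7 to 0.080 for TAC in shControl, Mbd1 to 0.41 and Usp7 to 0.45 for TAC in shUhrf1, and Uhrf2 to 0.19 after TAC. Leaving out 1 array let values near 0 change sign: Mbd1 for TAC in shUhrf1 ran from -0.29 to 0.071, Uhrf2 after TAC from -0.34 to 0.013, Dnmt1 after TAC from -0.13 to 0.20 and the Uhrf2 interaction from -0.18 to 0.18. None of these passed. The cause was not tested.

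The replicate numbers do not pair the arrays in any way that the labels state. Same-number deviations correlated with r of -0.157 to 0.254 over 18 pairs, 4 of them over 0.1. The median r was 0.0029 for the same number and -0.019 for different numbers. The count of arrays that correlated best with their own number in every other group at once was 0. That count is strict, so these values do not settle whether the arrays are paired. With the replicate number as a block (replicate block), Uhrf1 gave an adjusted p of 0.00294 for TAC in shControl. For shUhrf1 after TAC the replicate block gave -1.35 (adjusted p = 0.0401), and no member call changed. A slide or scan block was not run, because the columns name neither.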
